A study of Mus musculus with 10 samples.

Results

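The primary granule genes described here are Mpo, Elane, Prtn3 and Ctsg. They were chosen by name, and all 4 had an entry among the 10141 genes of the deposited expression table. The table came from bulk RNA sequencing of 2 cell populations sorted from the bone marrow of mice with acute myeloid leukaemia. The leukaemia cells carried the fusion gene MLL-AF9 together with a GFP reporter, had been injected through the tail vein into CD45.1 recipients, and were sorted as GFP+ (5 libraries, called leukaemia below). The comparison population was the GFP-CD11b+ cells of the same kind of marrow (5 libraries, called CD11b+ myeloid below), so both populations came from leukaemic animals, whose marrow was taken once GFP+ cells made up 2% of the blood. The sources used here give neither the animals' age nor whether each library came from its own mouse, so every p-value rests on the spread between these libraries alone, which may be technical. The labels give flow cytometry as the sort for both populations, whereas the design text gives magnetic selection of CD45.2- CD11b+ cells for the myeloid population. The cell type field reads leukaemia cells for all 10 samples, the CD11b+ libraries included, so the groups rest on the sample titles. No normal immature myeloid population was analysed here, so leukaemia and stage of maturation cannot be told apart in any difference below.

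Primary (azurophil) granules are the first granules that a developing neutrophil makes, at the promyelocyte stage. Myeloperoxidase, from Mpo, turns hydrogen peroxide and chloride into hypochlorous acid inside the phagosome. Neutrophil elastase (Elane), proteinase 3 (Prtn3) and cathepsin G (Ctsg) are serine proteases that are stored active, bound to the proteoglycan serglycin, and digest microbes and matrix. Transcription of these genes is known to fall as cells pass beyond the promyelocyte, while the stored proteins persist. A mature neutrophil can therefore hold much of each protein with little of its mRNA, and mRNA alone was measured here.

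The promoters of these genes are textbook targets of PU.1, Myb and C/EBP factors. The 4 windows are therefore shown to place the transcript values beside the promoter sequence of each gene. Each window runs from 250 bases before to 50 bases after the RefSeq start site (build GRCm38.p6). They are chr11:87793534-87793833 on the plus strand for Mpo, chr10:79886062-79886361 on the plus strand for Elane, chr10:79879417-79879716 on the plus strand for Prtn3 and chr14:56102525-56102824 on the minus strand for Ctsg. The sources used here do not name the build behind the deposited values. Sequences are written 5′ to 3′ on the strand of the gene, and capitals mark matches to AGGAAGT (PU.1-type) and to CAACNG or TAACNG (Myb-type), searched on both strands.
Mpo: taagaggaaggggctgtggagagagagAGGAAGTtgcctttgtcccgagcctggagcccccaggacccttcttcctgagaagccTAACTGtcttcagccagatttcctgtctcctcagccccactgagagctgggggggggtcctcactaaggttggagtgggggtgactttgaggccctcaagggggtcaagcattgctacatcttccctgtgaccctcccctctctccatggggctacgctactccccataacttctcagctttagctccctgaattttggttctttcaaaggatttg
Elane: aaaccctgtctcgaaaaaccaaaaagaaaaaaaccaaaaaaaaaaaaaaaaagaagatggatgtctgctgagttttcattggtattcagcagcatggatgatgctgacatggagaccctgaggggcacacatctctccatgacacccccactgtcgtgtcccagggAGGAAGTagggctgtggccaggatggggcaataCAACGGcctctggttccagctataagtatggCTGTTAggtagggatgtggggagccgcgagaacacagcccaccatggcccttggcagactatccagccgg
Prtn3: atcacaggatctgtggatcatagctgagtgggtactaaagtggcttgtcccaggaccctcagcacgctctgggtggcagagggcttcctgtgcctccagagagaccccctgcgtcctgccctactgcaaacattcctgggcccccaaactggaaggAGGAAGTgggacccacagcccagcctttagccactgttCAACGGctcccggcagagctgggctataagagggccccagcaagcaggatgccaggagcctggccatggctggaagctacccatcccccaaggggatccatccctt
Ctsg: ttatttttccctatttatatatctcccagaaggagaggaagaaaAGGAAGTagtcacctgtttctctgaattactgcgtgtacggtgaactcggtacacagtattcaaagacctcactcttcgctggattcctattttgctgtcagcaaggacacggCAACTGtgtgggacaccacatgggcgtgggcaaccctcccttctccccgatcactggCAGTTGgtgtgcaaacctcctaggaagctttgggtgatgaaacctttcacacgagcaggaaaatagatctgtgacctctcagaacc

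All 4 windows held 1 match to AGGAAGT, and all 4 held at least 1 Myb-type match. Counting the start site as base 1, the PU.1-type match lay from -223 to -217 in Mpo, from -84 to -78 in Elane, from -94 to -88 in Prtn3 and from -206 to -200 in Ctsg. The neighbouring genes Elane and Prtn3 thus carried it at similar distances, and each had a Myb-type match downstream of it, from -51 to -46 and from -56 to -51. Ctsg had Myb-type matches from -93 to -88 and from -36 to -31, Mpo had 1 from -166 to -161, and Elane had a further 1 from -20 to -15. Of 32851 RefSeq promoter windows of the same length, 9.35% held AGGAAGT, 49.7% held a Myb-type match and 4.9% held both. The C/EBP-type TTGCNNAA, present in 10.8% of windows, was in none of the 4, and the Runx-type TGTGGT, present in 16.8%, was in the Ctsg window alone, from -79 to -74. The motifs were chosen with these sequences in view, and a match is a description of letters, not evidence of binding.

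**Figure D1:**
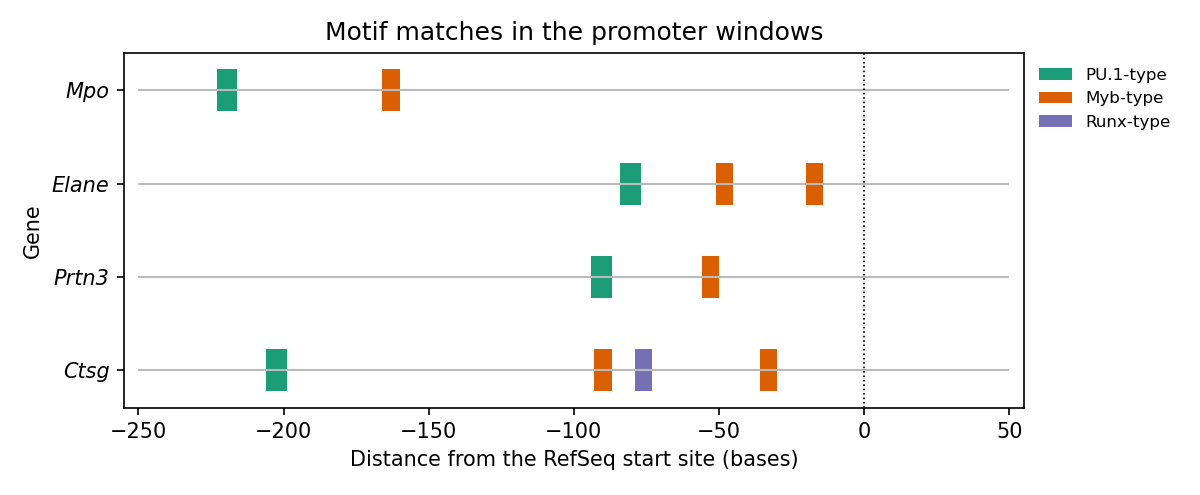
Motif matches along the promoter windows of the 4 genes, by distance in bases from the RefSeq start site (dotted line). Each coloured block is 1 match on either strand, and every gene has a PU.1-type block upstream of a Myb-type block.

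The libraries' labels were checked first. Hoxa9, a homeobox gene of the MLL-fusion programme, had 3215 ± 329 normalised reads in leukaemia and 16.0 ± 5.3 in CD11b+ myeloid cells (SD, n = 5 each). Itgam, which encodes CD11b, was 8-fold lower in leukaemia. The 10141 genes summed to between 24099551 and 32247803 recovered reads per library. Normalised reads are reads divided by the library's size factor, both recovered from the deposited log2 values. The table held only genes that had already been selected for a difference, so the adjusted p-values are not error rates over the transcriptome. CD11b+ replicates 2 and 4 stood apart from the other 3 CD11b+ libraries. Their summed level of the 8 dendritic cell and MHC class II genes was 5723 and 5813 normalised reads, against 39226 to 60819 in replicates 1, 3 and 5 and 1020 to 2379 in leukaemia. Where leaving them out changes a call on a named gene, this is said beside it.

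Mpo was the most abundant of the 4 transcripts in reads. Its level in leukaemia replicates 1 to 5 was 115037, 120903, 129939, 130111 and 135057 normalised reads. In the CD11b+ replicates 1 to 5 it was 14353, 26151, 11345, 19107 and 12577. The groups did not overlap, and the lowest leukaemia library lay 4.4-fold above the highest CD11b+ library. The means were 126209 ± 8068 and 16707 ± 6048 (SD, n = 5 each), a 7.55-fold difference, with a limma log2 difference of 2.94 (SE 0.18, 95% interval 2.54 to 3.33, adjusted p = 5.8e-09). Of its close relatives, the eosinophil peroxidase gene Epx lay below the filter on low values, with 92.1 to 212 normalised reads in the CD11b+ libraries and 2 reads in all in leukaemia, and Lpo, the lactoperoxidase gene, also lay below it.

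Elane, the elastase gene, was 11.5-fold higher in leukaemia. Its level was 66028, 84823, 77572, 87535 and 85483 normalised reads in leukaemia replicates 1 to 5, and 5646, 11318, 5233, 7069 and 5613 in the CD11b+ replicates. Replicate 1 was the lowest leukaemia library and replicate 2 the highest CD11b+ library, still 5.83-fold apart. The limma log2 difference was 3.47 (SE 0.17, 95% interval 3.10 to 3.84, adjusted p = 6.85e-10).

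Prtn3, the proteinase 3 gene, is the next protein-coding gene to Elane on chromosome 10. It had 31723, 47509, 40301, 49562 and 44146 normalised reads in leukaemia replicates 1 to 5, and 3308, 9606, 4660, 4809 and 5000 in the CD11b+ replicates. The groups did not overlap, and their means differed 7.79-fold (limma log2 difference 2.90, SE 0.21, 95% interval 2.45 to 3.35, adjusted p = 2.39e-08). As for Elane, replicate 1 was the lowest leukaemia library and replicate 2 the highest CD11b+ library, with a gap between them of 3.3-fold, the narrowest of the 4 genes.

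Ctsg, the cathepsin G gene, had the largest ratio of means. It had 23733, 31779, 28467, 31142 and 30294 normalised reads in leukaemia replicates 1 to 5, and 1431, 4447, 1469, 2566 and 1491 in the CD11b+ replicates. CD11b+ replicates 1, 3 and 5 lay within 1.04-fold of each other, and replicates 2 and 4 lay 3.04-fold and 1.75-fold above the mean of those 3. The means of all 5 libraries differed 12.8-fold (limma log2 difference 3.49, SE 0.22, 95% interval 3.003 to 3.975, adjusted p = 7.56e-09). Without CD11b+ replicates 2 and 4 the ratio was 19.9-fold.

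**Figure D2:**
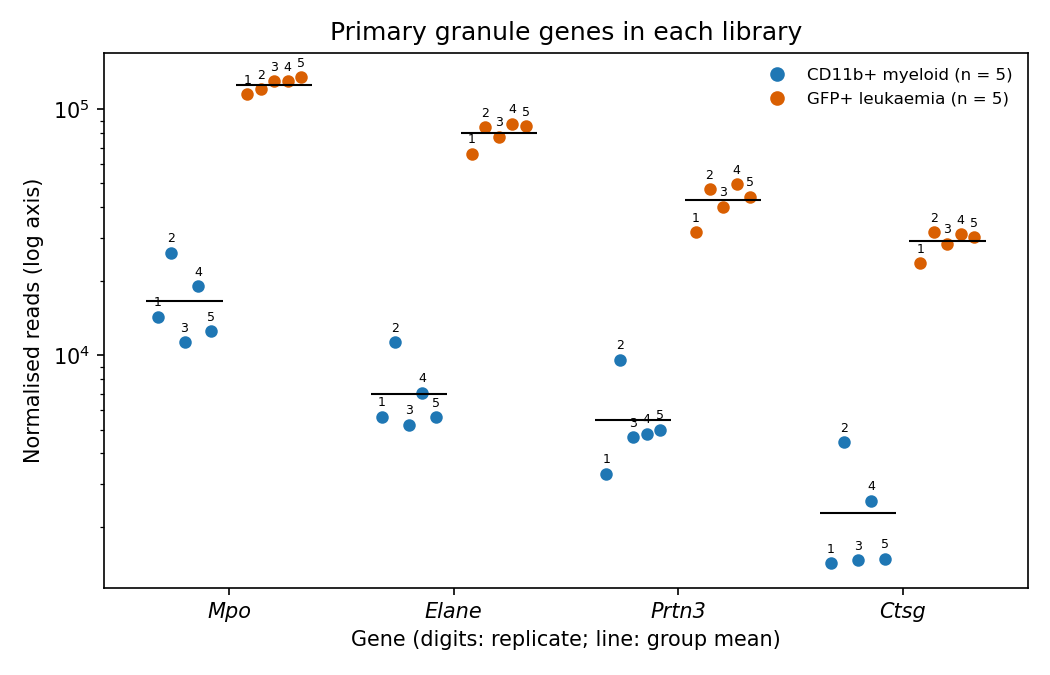
Normalised reads of Mpo, Elane, Prtn3 and Ctsg (log axis) in each library, with the replicate number above each point and a line at the group mean. For every gene all 5 leukaemia libraries lie above all 5 CD11b+ myeloid libraries, and CD11b+ replicate 2 is the highest of its group.

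All 4 members thus passed as higher in leukaemia, where 49.1% of the 8079 tested genes were higher and 50.7% lower (limma, adjusted threshold 0.05). All 4 had groups that did not overlap in this direction, against 42.4% of tested genes, and 86.8% had groups that did not overlap in either direction. Since calls were so common in this table, the size of the difference carries more than the call. Ranked from the highest log2 difference of the 8079 tested genes, Ctsg was number 4, Elane 5, Mpo 21 and Prtn3 22. These are ranks on the deposited log2 scale, which understates changes of genes with few reads, and not ranks of fold. In voom, a fit to the recovered reads, Hoxa9 went from 3.36 to 7.67. Mpo, Elane, Prtn3 and Ctsg stood at 2.99, 3.58, 3.04 and 3.82 there. The median difference of all tested genes on the deposited scale was -0.16. Another scaling moved that median, to 0.42 with reads scaled to the table's total and to 0.09 after quantile normalisation. It also moved the share of passing genes that were higher, from 49.2% to 67.2% and 53.4%. Relative to the median of all genes, the log2 differences of Mpo, Elane, Prtn3 and Ctsg were 3.09, 3.63, 3.06 and 3.65 with the authors' scaling. They were 3.200, 3.79, 3.25 and 4.02 with reads scaled to the table's total, and 4.34, 4.45, 3.46 and 3.84 after quantile normalisation. Each stayed above the median of all genes, but their order depended on the scaling.

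Together the 4 transcripts took 1.24% ± 0.11 of the table's normalised reads in leukaemia and 0.0884% ± 0.0273 in CD11b+ myeloid cells (SD, n = 5 each). The leukaemia libraries held 1.06%, 1.26%, 1.24%, 1.31% and 1.32%, and the CD11b+ libraries 0.076%, 0.135%, 0.0679%, 0.0897% and 0.0735%. The difference of 1.15 percentage points had an exact two-sided permutation p = 0.00794, the smallest that 5 libraries against 5 allow. A share also moves with the reads of every other gene, and the summed normalised reads of the table were 22456400 ± 214530 in leukaemia and 35023400 ± 2549200 in CD11b+ myeloid cells.

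Levels of different genes were compared per kilobase of annotated exon. In leukaemia Elane had the highest level, at 81594 ± 8958 normalised reads per kilobase, followed by Mpo (36860 ± 2356), Ctsg (28154 ± 3136) and Prtn3 (24624 ± 4068). They ranked 6, 17, 26 and 34 among 10115 genes with a length, counted from the highest level. The ranges of Ctsg and Prtn3 overlapped, although Ctsg was above Prtn3 within each of the 5 libraries. In CD11b+ myeloid cells Elane and Mpo again came first (7089 ± 2567 and 4879 ± 1766 per kilobase), but Prtn3 (3162 ± 1387) then lay above Ctsg (2208 ± 1260) within each library. Across CD11b+ libraries the ranges of each gene and the next in this order overlapped. The members ranked 195 to 681 in that group. Exon lengths came from the GENCODE annotation, whose transcripts may not be those of the authors' counting. In normalised reads without length, Ctsg stood at 62.8% to 74.8% of Prtn3 in leukaemia and 29.8% to 53.4% in the CD11b+ libraries. The place of Ctsg above Prtn3 in leukaemia thus depends on the lengths used.

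The proportions of the 4 transcripts were then compared within each library, as differences of the deposited log2 values, called log2 ratios here. These values compress low levels, such as those of Ctsg in the CD11b+ libraries, so library scaling cancels in them only in part. In percents of normalised reads it cancels fully. The log2 ratio of Elane to Mpo was -0.65 ± 0.12 in leukaemia and -1.19 ± 0.13 in CD11b+ myeloid cells (SD, n = 5 each), with no overlap between the groups (difference 0.53, exact two-sided permutation test, adjusted p = 0.0119 over 3 ratios). In normalised reads, Elane stood at 63.6% ± 5.3 of Mpo in leukaemia and 42.1% ± 3.8 in CD11b+ myeloid cells. The ratio of Ctsg to Mpo likewise differed without overlap (-2.10 ± 0.13 against -2.65 ± 0.19, difference 0.55, exact permutation test, adjusted p = 0.0119). With the authors' scaling Elane and Ctsg were thus raised more than Mpo. After quantile normalisation the log2 difference of Ctsg (3.93) lay below that of Mpo (4.43), and that of Elane was 4.54.

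The ratio of Ctsg to Elane did not separate the groups, at -1.45 ± 0.03 in leukaemia and -1.47 ± 0.19 in CD11b+ myeloid cells (difference 0.02, exact permutation test, adjusted p = 0.817). In the 5 leukaemia libraries Ctsg stood at between 35.4% and 37.5% of Elane, the tightest of the proportions. In CD11b+ replicates 1, 3 and 5 it stood at 25.3%, 28.1% and 26.6%, and in replicates 2 and 4 at 39.3% and 36.3%. Without replicates 2 and 4 the difference in this ratio was 0.15 and passed (exact permutation test, adjusted p = 0.0179), so the result rests on those libraries.

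Because the table also held Prtn3, 3 further ratios were computed. Prtn3 to Elane was lower in leukaemia (-0.91 ± 0.09 against -0.34 ± 0.24, difference -0.57) and Ctsg to Prtn3 was higher (-0.53 ± 0.09 against -1.12 ± 0.28, difference 0.59), both without overlap (exact permutation test, adjusted p = 0.0119 for each). Prtn3 to Mpo did not separate the groups (-1.57 ± 0.21 against -1.53 ± 0.36, difference -0.04, adjusted p = 0.849, exact permutation test). A difference between Prtn3 and Mpo was thus not detectable beyond the spread, whereas Elane, the neighbour of Prtn3 on the chromosome, was raised more than Prtn3. Prtn3 made up 52.9% ± 3.5 of Elane in leukaemia and 77.9% ± 13.9 in CD11b+ myeloid cells.

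**Figure D3:**
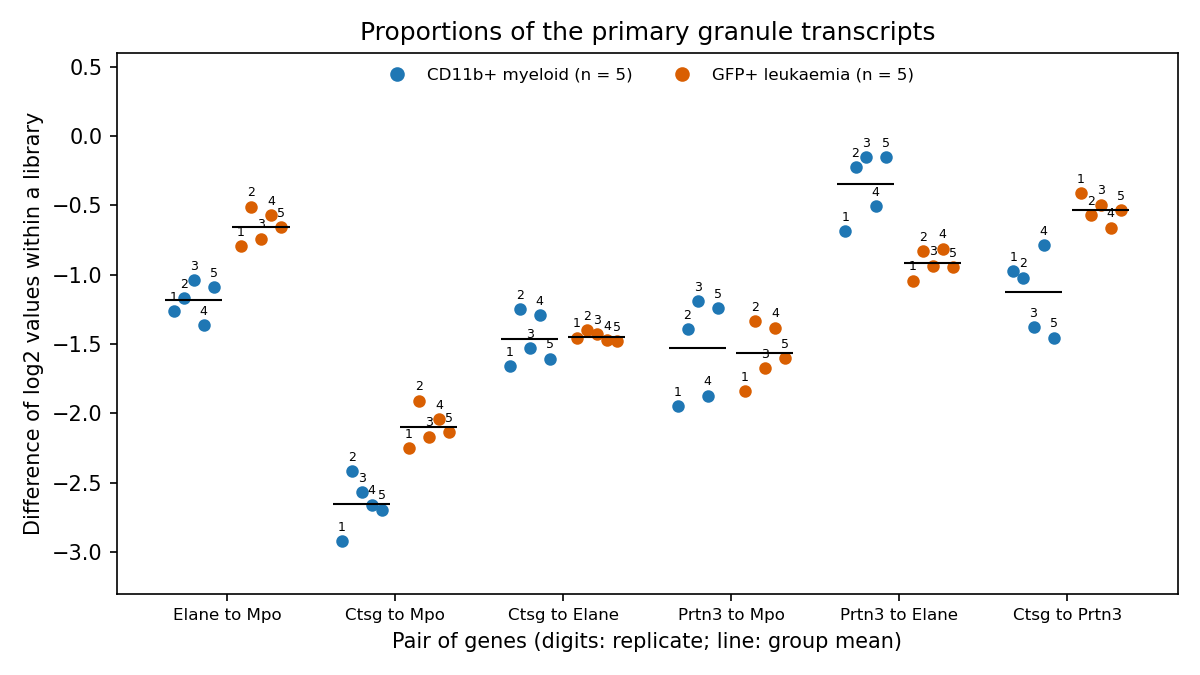
Difference of the log2 values of pairs of genes within each library, with replicate numbers and group means. Elane to Mpo, Ctsg to Mpo and Ctsg to Prtn3 lie higher in leukaemia and Prtn3 to Elane lies lower, all without overlap, while Ctsg to Elane and Prtn3 to Mpo overlap.

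The members varied widely among the CD11b+ myeloid libraries. The coefficient of variation of normalised reads was 36.2% for Mpo, 36.2% for Elane, 43.9% for Prtn3 and 57.1% for Ctsg there, against 6.39%, 11.0%, 16.5% and 11.1% in leukaemia. On the log2 scale the SDs among CD11b+ libraries were 0.47, 0.42, 0.51 and 0.59, where the median SD of all tested genes was 0.13. In leukaemia they were 0.09, 0.17, 0.25 and 0.17, beside a median of 0.09. The difference in spread between the groups did not pass, with absolute deviations from the group median compared by an exact two-sided permutation test (adjusted p = 0.254 for Mpo and 0.675 for each of the other 3). For Mpo it passed without CD11b+ replicate 1, 3 or 5 (adjusted p = 0.0317 in each case, exact permutation test).

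Replicate 2 was the highest CD11b+ library for all 4 members, at 2.05-fold, 2.06-fold, 2.22-fold and 3.04-fold the mean of replicates 1, 3 and 5 for Mpo, Elane, Prtn3 and Ctsg. Replicate 4 came next for Mpo (1.5-fold), Elane (1.29-fold) and Ctsg (1.75-fold), but for Prtn3 it lay below replicate 5. With replicates 2 and 4 left out, the coefficient of variation over the 3 other libraries was 11.9% for Mpo, 4.18% for Elane, 20.7% for Prtn3 and 2.07% for Ctsg. The log2 differences between leukaemia and CD11b+ myeloid cells were then 3.25, 3.73, 3.15 and 3.88, and all 4 still passed in limma.

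Levels of marker genes of other stages and cell types moved with this variation. The 11 mature neutrophil genes summed to 2243890 normalised reads in CD11b+ replicate 2 and 1659060 in replicate 4, against 1265780 to 1392620 in the others. The 15 secondary and tertiary granule genes summed to 3345950 and 3096570, against 2295380 to 2581590. The 10 genes listed for the promyelocyte stage summed to 72884 and 68737, against 55744 to 57763. The 9 eosinophil, basophil and mast cell genes with an entry summed to 36593 and 33922, against 22748 to 24861. The 7 monocyte genes with an entry went the other way, at 93927 and 135824 against 164006 to 170462. So did the 6 macrophage genes with an entry, at 4403 and 6435 against 20280 to 29808, like the MHC class II genes above. Cd74, the MHC class II invariant chain, had 2240 and 2228 normalised reads in those libraries and 18171 to 30262 in the others. In bulk samples fewer cells of a type and less RNA per cell cannot be told apart, and the part of these other cells in the members' levels was not tested.

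**Figure D4:**
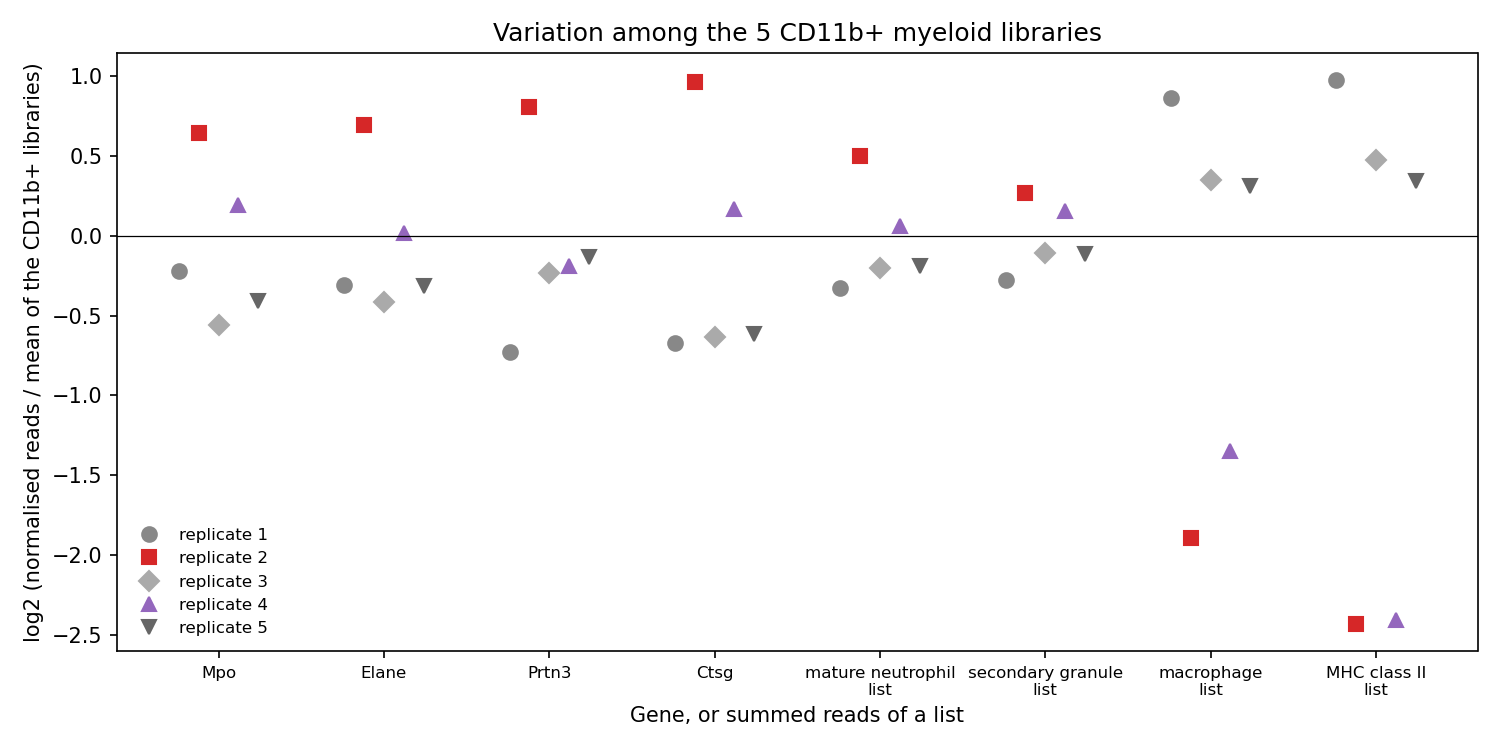
Normalised reads of the 4 members, and summed reads of 4 marker lists, in each CD11b+ myeloid library as log2 of the ratio to the mean of the 5 libraries. Replicate 2 (red squares) is highest for each member and for the neutrophil lists, and replicates 2 and 4 are lowest for the macrophage and MHC class II lists.

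The CD11b+ myeloid libraries held each member at a measurable level. As a share of the leukaemia mean, the CD11b+ libraries held 13.2% ± 4.8 for Mpo, 8.69% ± 3.15 for Elane, 12.8% ± 5.6 for Prtn3 and 7.84% ± 4.48 for Ctsg (SD, n = 5). The same share was 0.497% ± 0.165 for Hoxa9 and 2.58% ± 0.80 for Meis1, a partner of the Hoxa proteins. In CD11b+ replicate 2 the members stood at 14.1% to 22.5%, beside 0.588% for Hoxa9 and 2.34% for Meis1 in that library. Within each CD11b+ library every member's share lay above those of Hoxa9 and Meis1, most narrowly in replicate 1, where Ctsg stood at 4.92% and Meis1 at 3.71%. The members' counts there were well above counting noise, with at least 1097 reads of each member in every library.

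The genes around the members were read from a RefSeq table and were chosen after their values were seen. Elane and Prtn3 are adjacent protein-coding genes, and Plppr3, on the far side of Prtn3, had 6856 ± 1013 normalised reads in leukaemia and 839 ± 253 in CD11b+ myeloid cells, 8.17-fold apart (SD, n = 5 each). Ptbp1, a splicing regulator beyond Plppr3, was 2.72-fold higher, and Med16, a Mediator subunit on the Elane side, was 1.246-fold higher. Between Elane and Med16 lies Cfd, below the filter on low values, with 198 reads in all in leukaemia and 0 in CD11b+ myeloid cells. Next to Mpo, Tspoap1 was 10.4-fold higher (9231 ± 1365 against 889 ± 172), whereas Supt4a, the gene beyond it, was 2.05-fold lower. On the other side of Mpo lies Lpo, also below the filter, and then Mks1, which was 2.59-fold higher. Ctsg lies in a cluster of granzyme and mast cell protease genes, and its neighbour Mcpt8, a basophil protease, went the other way at 2.78-fold lower. Each of these neighbours except Cfd and Lpo, which were not tested, passed in limma, as 99.8% of tested genes did. A lncRNA gene, Gm34064, overlaps Mpo in this annotation, and the sources used here do not state a strand setting for the authors' counting, so reads of that lncRNA cannot be told from those of Mpo.

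The 5 other genes with the nearest profile were found by the root mean square difference of centred log2 values over the 10 libraries from the mean profile of the 4 members. They were Cd34 (0.23), Penk (0.25), Cdk6 (0.28), Dio2 (0.28) and Myb (0.29), where the median of all tested genes lay at 1.71. The members themselves lay at 0.14 to 0.21, but each is part of that mean profile, which shortens its distance. These distances therefore do not rank the members against the other genes. Cd34, a surface protein of stem and progenitor cells, had 7894 ± 1053 normalised reads in leukaemia and 311 ± 158 in CD11b+ myeloid cells, 25.4-fold apart. It was also highest in CD11b+ replicates 2 and 4, at 512 and 450, against 171 to 212 in the others. Cdk6, a cell cycle kinase of the G1 phase, was 10.9-fold higher. Likeness here is mostly the size of the group difference on the deposited log2 scale, which understates changes of genes with few reads. In fold, Cd34, Penk (45.01-fold) and Dio2 (27.8-fold) differed more than the members, which differed 7.55-fold to 12.8-fold. Cdk6 and Myb (9.69-fold) lay within the members' range of folds.

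The rest of the granule pathway did not follow the members as a block. Prss57, a serine protease gene of the same granules and the fourth tested protease of the list, was 1.97-fold higher in leukaemia (1495 ± 246 against 758 ± 190). It was named after its values were seen. All 4 tested genes of the protease list were therefore higher, 3 of them members. The other contents of primary granules, many of which are also general lysosomal proteins, had 5 of 15 tested genes higher and 10 lower (median log2 difference -0.55, beside -0.16 over all genes tested, of which 3965 were higher and 4097 lower). Gusb, the beta-glucuronidase gene, was 2.12-fold higher. Cd63, a tetraspanin of the granule membrane, was 1.40-fold higher, with overlapping groups. Lyz2, the lysozyme gene, whose product is in all neutrophil granules and in macrophages, was 10.5-fold lower (52785 ± 10794 against 555542 ± 79959). Naaa, a lysosomal amidase gene, was 7.92-fold lower. With reads scaled to the table's total, 6 genes of this list were higher and 6 lower (median 0.0647). Of all 8079 tested genes, 4614 were higher and 2254 lower under the same scaling (median 0.42). Man2b1, singled out for this after its values were seen, was lower with the authors' scaling, higher under that scaling and after quantile normalisation, and did not pass without CD11b+ replicates 2 and 4.

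Among the genes that process and package the granule proteins, 11 of 15 tested were higher and 4 lower (median log2 difference 0.39). Calr, the gene of calreticulin, a chaperone of the myeloperoxidase precursor, was 4.21-fold higher in leukaemia (43390 ± 2819 against 10295 ± 802). G6pc3, a glucose-6-phosphatase gene in which loss causes neutropenia, was 4.68-fold higher. Ctsc went against its substrates. It encodes the dipeptidyl peptidase that activates elastase, cathepsin G and proteinase 3, and was 3.16-fold lower in leukaemia (3647 ± 831 against 11525 ± 3964, limma log2 difference -1.48 and adjusted p = 2.29e-05). Its CD11b+ level was 11098, 9491, 16275, 6298 and 14465 normalised reads in replicates 1 to 5, lowest in replicates 2 and 4, where the macrophage and MHC class II genes were also lowest. The leukaemia libraries held 2578 to 4626, and the groups did not overlap. Cst7, the gene of cystatin F, an inhibitor of that peptidase, was 4.15-fold higher, and Srgn, the serglycin gene, was 1.31-fold higher. Both of these were singled out after their values were seen. Ap3m1, a subunit of the AP-3 sorting complex, was 1.97-fold lower.

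Of the inhibitors of the granule proteases, 2 of 6 tested were higher and 4 lower (median -0.40). With reads scaled to the table's total 2 were higher and 1 lower (median 0.14), and after quantile normalisation 2 were higher and 2 lower (median 0.10). Over all tested genes the first scaling gave 4614 higher and 2254 lower (median 0.42). The second gave 3795 higher and 3311 lower (median 0.09). Slpi, whose product blocks elastase and cathepsin G, was 1.52-fold higher, with overlapping groups. Serpina3g was 2.58-fold higher, also with overlapping groups. Its level was 3491 normalised reads in leukaemia replicate 2, against 679 to 1461 in the other leukaemia libraries. Serpina3g did not pass without CD11b+ replicates 2 and 4 (limma adjusted p = 0.0776). Serpinb6a, which encodes an intracellular inhibitor of cathepsin G, was 3.83-fold lower (312 ± 36 against 1194 ± 124). Serpinb1a, the gene of the main cytosolic inhibitor of elastase, and Cst3 were 1.40-fold and 1.46-fold lower with the authors' scaling. With reads scaled to the table's total and after quantile normalisation, both had log2 differences above 0 that did not pass. Serpinb1a, named after its values were seen, also did not pass without CD11b+ replicates 2 and 4 (limma adjusted p = 0.0591). All 7 tested genes of granule release were lower in leukaemia (median -1.44). Stx11, a SNARE gene, was 9.77-fold lower, and Padi4, whose enzyme opens chromatin in neutrophil extracellular traps, was 6.07-fold lower.

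The regulators moved in both directions, with 3 of 13 tested genes higher and 10 lower (median -1.22). Myb, a progenitor transcription factor and one of those whose motif is marked above, was 9.69-fold higher in leukaemia (25843 ± 2691 against 2667 ± 417). Gfi1, a repressor that also binds the elastase gene, was 3.98-fold higher. Mxd1, a Myc antagonist of maturing cells, was 39.8-fold lower, and Lmo4 was 5.05-fold lower. Spi1, which encodes PU.1, was 2.42-fold lower (8261 ± 909 against 19952 ± 2326), Cebpa was 1.64-fold higher and Cebpe, the factor of secondary granule formation, was 3.47-fold lower. These last 3 were named after their values were seen. Cbfb, also named after its values were seen, did not pass without CD11b+ replicates 2 and 4, and turned from lower to higher with reads scaled to the table's total and after quantile normalisation.

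Among genes listed for the promyelocyte stage, 8 of 10 tested were higher and 2 lower (median 1.46). Clec11a (100-fold) and Sox4 (26.6-fold) were among the higher genes, and Mgst1 (8.13-fold) and Fcnb (7.64-fold) were lower. A shorter marker list for that stage held Ms4a3 (3.65-fold higher), Nkg7 (4.31-fold higher), Prss57 (1.97-fold higher) and Fcnb. Clec11a and Sox4 were not in it. The fold of Clec11a rests on 70 reads in all in the CD11b+ libraries, and its limma log2 difference was 2.62. Prss57, among the higher genes, is also in the protease list above. By contrast, all 14 tested secondary and tertiary granule genes were lower (median -4.63), among them Mmp9 (138-fold) and Mmp8 (164-fold).

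**Figure D5:**
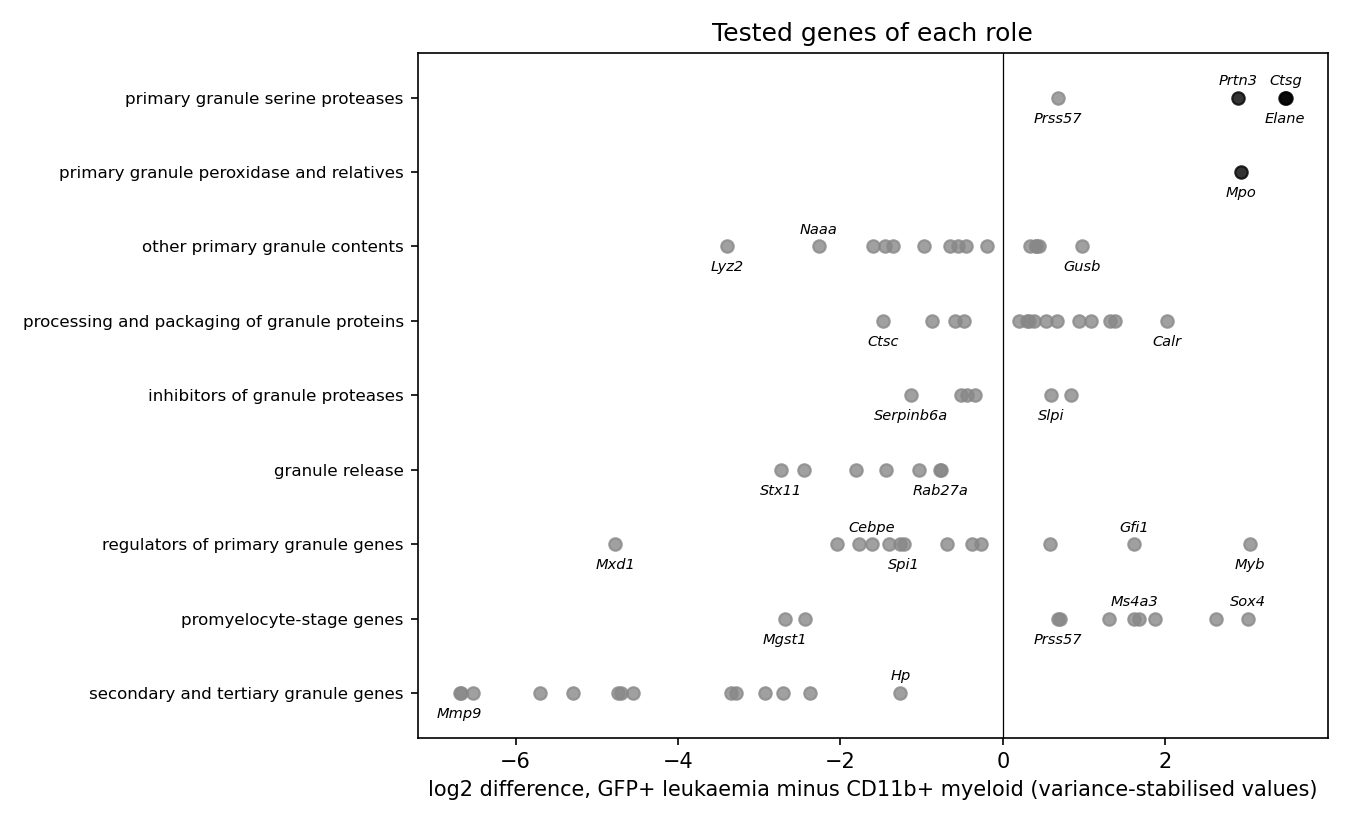
Limma log2 difference, leukaemia minus CD11b+ myeloid, of each tested gene by role, with the 4 members in black and other genes in grey. The members lie between 2.90 and 3.49, while the other primary granule contents lie on both sides of 0 and the secondary and tertiary granule genes lie below it.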

How the data were processed

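The authors deposited 1 table of log2 values whose form is that of a variance-stabilising transformation. HISAT2 (2.0.4 and 2.2.1) and DESeq2 are named in the submitters' processing notes. The sources used here state no genome build, annotation, counter or strand setting. Groups came from sample titles.

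All libraries shared the lowest value, 8.1823. The variance-stabilising function was inverted from that value, assuming the parametric form. Among values of at most 300 reads, 100% in each library were then within 0.1 of a whole multiple of 1 read, which gave reads and size factors. A recovered read may be part of a counted pair.

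Differences are leukaemia minus CD11b+ myeloid, fitted with limma 3.58.1 (R 4.3.3, trended prior, two-sided, Benjamini-Hochberg over 8079 genes). The filter asked for a 10-library mean more than 1 unit higher than the lowest value, about 145 normalised reads. Variance-stabilised differences understate changes of genes with few reads. Folds are ratios of mean normalised reads. Single values were compared with exact permutation tests over all assignments of the libraries. Tested on simulated data for this comparison (8244 genes), calls in limma were made for 44 of 50 genes set to differ 1.5-fold, for 50 of 50 set to differ 4-fold and for 12 of 8044 unchanged genes. The simulation gave both groups the same dispersion and left most genes unchanged, unlike this table. Its rates therefore do not carry over to the members.

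Named genes were the members, at most the 2 highest and 2 lowest passing genes and the most abundant failing gene of each list, the 5 nearest profiles and 4 label checks. Marker lists not described in the report are in the closing section. Members and lists were chosen with earlier results of these data known. Alternatives were other filters, scalings, fits, a replicate block and leaving out libraries.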

Additional observations from a re-analysis of the deposited data

Results flagged for a closer look

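The share of normalised reads held by the 4 members together was 1.06% in leukaemia replicate 1, below the 1.24% to 1.32% of the other 4 leukaemia libraries. The gap to the nearest library was 0.713 of the range of the group, past the 95% limit of Dixon's test for 5 samples. The same test was made on 22 sets of 5 values (each member, each ratio and the share, in each group), and chance passes about 1 in 20. Each of the 4 members was also lowest of its group in that library, and none passed this test alone.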

How the results depend on the processing

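All 4 log2 differences passed as higher under all 18 alternatives, within 2.82 to 4.43 for Mpo, 3.39 to 4.54 for Elane, 2.76 to 3.67 for Prtn3 and 3.38 to 4.44 for Ctsg. Replicate numbers were not treated as pairs, since the labels give no shared source, 1 of 5 same-numbered pairs did not deviate together (correlation -0.02, across genes, against up to 0.32 in the other 4) and only 2 of 5 leukaemia libraries correlated best with their own number. With a replicate block in limma the member differences stayed 2.94, 3.47, 2.90 and 3.49, and all passed. For single values, paired sign changes over 5 numbers cannot give p below 0.0625 and so cannot pass. Under that block the ratios Elane to Mpo (0.53), Ctsg to Mpo (0.55), Prtn3 to Elane (-0.57) and Ctsg to Prtn3 (0.59) had adjusted p = 0.0938 and the share (1.15 points) had p = 0.0625 (exact tests). Leaving out 1 library at a time, Ctsg to Elane ran from -0.0283 to 0.0745 and Prtn3 to Mpo from -0.14 to 0.0469. The latter was 0.0531 on log2 recovered reads plus 1. On the same scale Ctsg to Mpo was 0.84 and Ctsg to Elane was 0.24. Without CD11b+ replicates 2 and 4, chosen after seeing the data, Ctsg to Elane was 0.15, and the difference in spread turned to -0.0754 for Elane and -0.0932 for Ctsg. Leaving out 1 library at a time, the spread difference ran from 0.16 to 0.37 for Mpo, from -0.00726 to 0.23 for Elane and from -0.0322 to 0.20 for Prtn3 and from 0.062 to 0.39 for Ctsg. The lowest value of each was that without CD11b+ replicate 2. edgeR's test and TMM factors were not run, and voom took the recovered size factors instead. Depth did not limit the members, with 1097 to 180716 reads each per library.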

Other observations

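The remaining marker lists gave these counts (limma, of the genes tested). All 11 mature neutrophil genes and all 6 dendritic cell and MHC class II genes were lower in leukaemia, also under both other scalings. All 7 monocyte genes were lower with the authors' scaling, 5 of 7 after quantile normalisation and 4 of 7 with reads scaled to the table's total. Of all 8079 tested genes, 4097, 3311 and 2254 were lower under these 3 scalings in that order. Of 5 macrophage genes 1 was higher and 3 were lower. The fifth, Axl, had a log2 difference of -0.74 that did not pass (limma adjusted p = 0.0672), but passed as lower without CD11b+ replicates 2 and 4 (-1.45, adjusted p = 9.44e-07), after quantile normalisation (adjusted p = 0.0404) and with a replicate block (adjusted p = 0.0108). Of 6 eosinophil, basophil and mast cell genes 2 were higher and 4 lower. Of 2 lymphoid genes 1 was lower and Cd79b was higher, which did not pass without CD11b+ replicates 2 and 4 (limma adjusted p = 0.142) or after quantile normalisation (adjusted p = 0.192). No erythroid or megakaryocyte gene passed the filter. Of 5 fusion programme and sort marker genes 3 were higher and 2 lower.

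Over the CD11b+ libraries alone, a search added after seeing the data, the genes whose centred log2 values lay nearest to the members' mean profile were S100a8 (root mean square difference 0.06), Ly6g (0.09), Mcm2 (0.10), Gm5483 (0.11) and Dut (0.11), beside a median of 0.41 over all tested genes. S100a8 and Ly6g are genes of maturing neutrophils that were 32.0-fold and 71.5-fold lower in leukaemia, whereas the DNA replication genes Mcm2 (5.08-fold) and Dut (3.73-fold) were higher. Genes with opposite differences between the groups thus varied with the members among the CD11b+ libraries.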
